A study of Mus musculus with 8 samples.

Results

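The transcripts of 7 ion channel genes were followed in hearts of newborn mice: the sodium channel genes Scn4a, Scn7a, Scn3b and Scn4b and the pacemaker channel genes Hcn2, Hcn3 and Hcn4. They were taken by gene symbol, with no threshold on a measured value, and are 7 of 54532 genes in the deposited expression table. The choice was made with earlier results of these data known. RNA came from whole hearts at postnatal day 4, with 4 libraries of the genotype Mrps5 fl/+ (control) and 4 of Mrps5 fl/+;Myh6-Cre (cHET). Both groups thus carry a floxed allele of Mrps5, a gene for a protein of the small mitochondrial ribosomal subunit, and cHET hearts also carry a Cre transgene. The Myh6 promoter drives this Cre in cardiomyocytes, so cells other than cardiomyocytes keep both alleles. The animals were littermates and neither group was treated otherwise. A group with Cre and no floxed allele was not analysed here, so an effect of the transgene and an effect of the lost allele cannot be told apart.

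Voltage-gated sodium channels consist of a large pore subunit, which opens on depolarization and starts the action potential, and of smaller beta subunits, single-pass membrane proteins that tune gating and surface delivery of the pore. Hyperpolarization-activated cyclic nucleotide-gated (HCN) channels open when the membrane becomes negative, pass the inward pacemaker current and open more readily when cAMP binds them. Hcn4 is the main HCN gene of the sinoatrial node, the heart's pacemaker in the right atrium, and is known to retreat from working muscle towards the node and conduction fibres as the heart develops, while Hcn2 is known from ventricular muscle as well. The other 11 rows of the sodium channel and HCN families in the table were counted but are not described singly here.

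The promoters of the 3 most abundant members are shown because their makeup differs between Hcn4 and Hcn2 on one side and Scn7a on the other. Each is the 250 bases before a RefSeq transcript start (GRCm38.p6), read 5′ to 3′ on the gene's strand, with GC boxes (GGGCGG on either strand, a site of Sp1-type factors) in capitals. The windows are chr9:58822699-58822948 on the plus strand for Hcn4, chr10:79716384-79716633 on the plus strand for Hcn2 and chr2:66784911-66785160 on the minus strand for Scn7a.
Hcn4: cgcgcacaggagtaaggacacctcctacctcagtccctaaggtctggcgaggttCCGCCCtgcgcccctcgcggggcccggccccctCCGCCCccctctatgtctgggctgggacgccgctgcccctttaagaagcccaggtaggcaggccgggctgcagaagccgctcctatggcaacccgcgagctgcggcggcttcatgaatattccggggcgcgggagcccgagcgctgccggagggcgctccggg
Hcn2: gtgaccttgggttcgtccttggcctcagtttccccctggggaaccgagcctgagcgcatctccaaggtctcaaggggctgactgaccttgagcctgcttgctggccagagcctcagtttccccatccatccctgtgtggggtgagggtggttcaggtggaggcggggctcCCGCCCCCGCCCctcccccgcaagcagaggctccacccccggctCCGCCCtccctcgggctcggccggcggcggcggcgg
Scn7a: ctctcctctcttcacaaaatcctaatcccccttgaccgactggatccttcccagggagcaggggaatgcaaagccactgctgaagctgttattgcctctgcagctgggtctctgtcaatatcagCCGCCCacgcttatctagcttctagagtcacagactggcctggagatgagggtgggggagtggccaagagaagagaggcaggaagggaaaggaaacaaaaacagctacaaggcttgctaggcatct
The Hcn4 window was 71.2% G and C with 25 CG dinucleotides and the Hcn2 window 70.4% with 16, whereas the Scn7a window was 53.2% with 3. The medians over 32851 RefSeq promoters were 52.4% and 6. GC boxes matched 2 times in Hcn4, 3 times in Hcn2 and 1 time in Scn7a, and 32.7% of all promoters held at least 1. The E-box CANNTG matched 0 times in Hcn4 and 1 time each in Hcn2 and Scn7a (66.2% of all promoters), and the GATA site AGATAA matched 1 time in Scn7a and 0 times in the other two (9.99% of all). The T-box half-site GGTGTG (16.3% of all promoters) and TATAAA (12.4%) had 0 matches in the 3 windows. Windows were also found for Scn4a (61.6% G and C, 4 CG) and Scn4b (66.0%, 23 CG), which made 5 of 7 members. By both values the Scn4b window was closer to those of Hcn4 and Hcn2 than to that of Scn7a, so the contrast does not separate pacemaker from sodium channel genes. The Hcn4 window ended at 58822948, upstream of the gene start given below (58823412). The Scn4b window (45138374 to 45138623) lay mostly inside the gene as given below, which starts at 45138395. The Scn4a window (106349391 to 106349640) lay wholly inside its gene (106318592 to 106353288). Scn3b and Hcn3 were not matched.

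Depth was 15490622 to 19234777 reads assigned to genes per library, rebuilt from the deposited values. Mrps5 stood at 11.6, 6.27, 10.1 and 5.15 FPKM (fragments per unit of gene length and of a library-specific scale) in control 1 to 4 and at 6.84, 7.12, 6.995 and 7.68 in cHET 1 to 4, so that the groups overlapped (exact two-sided permutation test, p = 0.486, n = 4 per group). The smallest p that this design allows is 0.0286. Whole hearts also hold cells in which Cre is not expressed, and the groups are named as labelled. Some libraries stood apart. Fat genes such as Ucp1 were highest in control 1 and control 2 (17.8 and 16.7 FPKM, against 6.56 or less elsewhere). Atrial genes were lowest in cHET 3, where 10 atrial markers summed to 265 FPKM against 1532 to 5432 in the other 7 libraries. Markers of the sinoatrial node were highest in cHET 2, where 14 of them summed to 86.3 FPKM against 45.9 to 62.3 in the others. The defining genes of heart muscle were abundant, with Myl2, the ventricular myosin light chain, at 3757 to 6634 FPKM. The labels number the replicates without saying that each came from its own animal, so the p-values measure only the spread between these samples, which may be technical.

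Of the sodium channel pore genes among the members, Scn7a (ENSMUSG00000034810, chromosome 2, 66673425 to 66784914, minus strand) was the more abundant. Levels of the family's other rows are not given here, so this does not rank Scn7a within the family. It encodes an atypical sodium channel, known as a sodium level sensor rather than a carrier of action potentials. Scn7a stood at 1.40, 1.34, 1.28 and 1.59 FPKM in control 1 to 4 and at 1.39, 1.121, 1.01 and 0.80 FPKM in cHET 1 to 4. The other 3 cHET libraries lay below all controls, and cHET 1 within their range. Controls averaged 1.40 ± 0.134 FPKM and cHET libraries 1.08 ± 0.244 (SD, n = 4), at 102 to 191 reads per library.

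Scn4a (ENSMUSG00000001027, chromosome 11, 106318592 to 106353288, minus strand) encodes the pore subunit best known from skeletal muscle. Its values were 0.411, 0.396, 0.513 and 0.676 FPKM in control 1 to 4 and 0.341, 0.663, 0.318 and 0.327 FPKM in cHET 1 to 4. cHET 2 and control 4 were high and the other 3 cHET libraries lay below every control. With 36 to 93 reads per library, the 95% Poisson interval of cHET 2 (0.535 to 0.812 FPKM) did not meet those of the other cHET libraries, which ended at 0.462 FPKM or lower. Poisson intervals cover counting error only. Myod1 and Myf5, which define the skeletal muscle lineage, were listed at 0 in all 8 libraries. Of 14 skeletal muscle markers 12 stayed under 1 FPKM everywhere, and their sum was 2.40 to 4.51 FPKM in control and 1.73 to 4.78 in cHET, led by Mylpf and Tnnt3.

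The beta subunit genes among the members were scarce. Scn3b (ENSMUSG00000049281, chromosome 9, 40269217 to 40291618, plus strand) had 0.424, 0.589, 0.255 and 0.559 FPKM in control 1 to 4 and 0.343, 0.570, 0.581 and 0.696 FPKM in cHET 1 to 4. Control 3 was lowest and cHET 4 highest, with wide overlap of the groups. Scn4b (ENSMUSG00000046480, chromosome 9, 45138395 to 45154152, plus strand), whose protein is linked to the pore by a disulphide bond, had 0.0905, 0.0621, 0.127 and 0.172 FPKM in control 1 to 4 and 0.0587, 0.161, 0.237 and 0.104 FPKM in cHET 1 to 4. These values rest on 5 to 19 reads per library, and the interval of the highest library, cHET 3 (0.143 to 0.371 FPKM), overlapped those of 6 of the other 7. Scn3b overlaps a predicted gene on the other strand that was listed at 0.

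Hcn2 (ENSMUSG00000020331, chromosome 10, 79716634 to 79736108, plus strand) was the most abundant of the 7 members and the steadiest. It stood at 2.66, 3.49, 2.62 and 4.05 FPKM in control 1 to 4 and at 2.75, 3.41, 4.27 and 3.497 FPKM in cHET 1 to 4. The groups overlapped over most of their range, and controls averaged 3.20 ± 0.692 FPKM against 3.48 ± 0.623 for cHET (SD, n = 4). Hcn2 was not low in cHET 3, the library with few atrial transcripts, where it was highest.

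Hcn4 (ENSMUSG00000032338, chromosome 9, 58823412 to 58863175, plus strand) varied most. It stood at 1.67, 0.890, 2.49 and 1.58 FPKM in control 1 to 4 and at 1.32, 6.04, 1.26 and 1.38 FPKM in cHET 1 to 4. A single library, cHET 2, lay 2.43-fold above the next, control 3, and the other 3 cHET libraries lay inside the control range. The level in cHET 2 rests on 737 reads (95% Poisson interval 5.61 to 6.50 FPKM), against 88 to 240 reads elsewhere. The coefficient of variation over the 8 libraries was 80.1%, and 1.2% of the 13029 tested genes had a larger one. Without cHET 2 it was 32.8%. Controls averaged 1.66 ± 0.654 FPKM and cHET libraries 2.50 ± 2.36 (SD, n = 4), or 1.32 ± 0.0608 without cHET 2 (SD, n = 3).

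Hcn3 (ENSMUSG00000028051, chromosome 3, 89146074 to 89160196, minus strand), an HCN gene better known from neurons, was at the edge of detection. It had 0.139, 0.224, 0.122 and 0.206 FPKM in control 1 to 4 and 0.282, 0.302, 0.0899 and 0.236 FPKM in cHET 1 to 4, at 6 to 25 reads per library. In cHET 1, cHET 2 and cHET 4 it lay above all controls and in cHET 3 below them, and the Poisson intervals overlapped widely. Hcn3 overlaps Pklr on the other strand, which averaged 0.00241 FPKM.

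**Figure D1:**
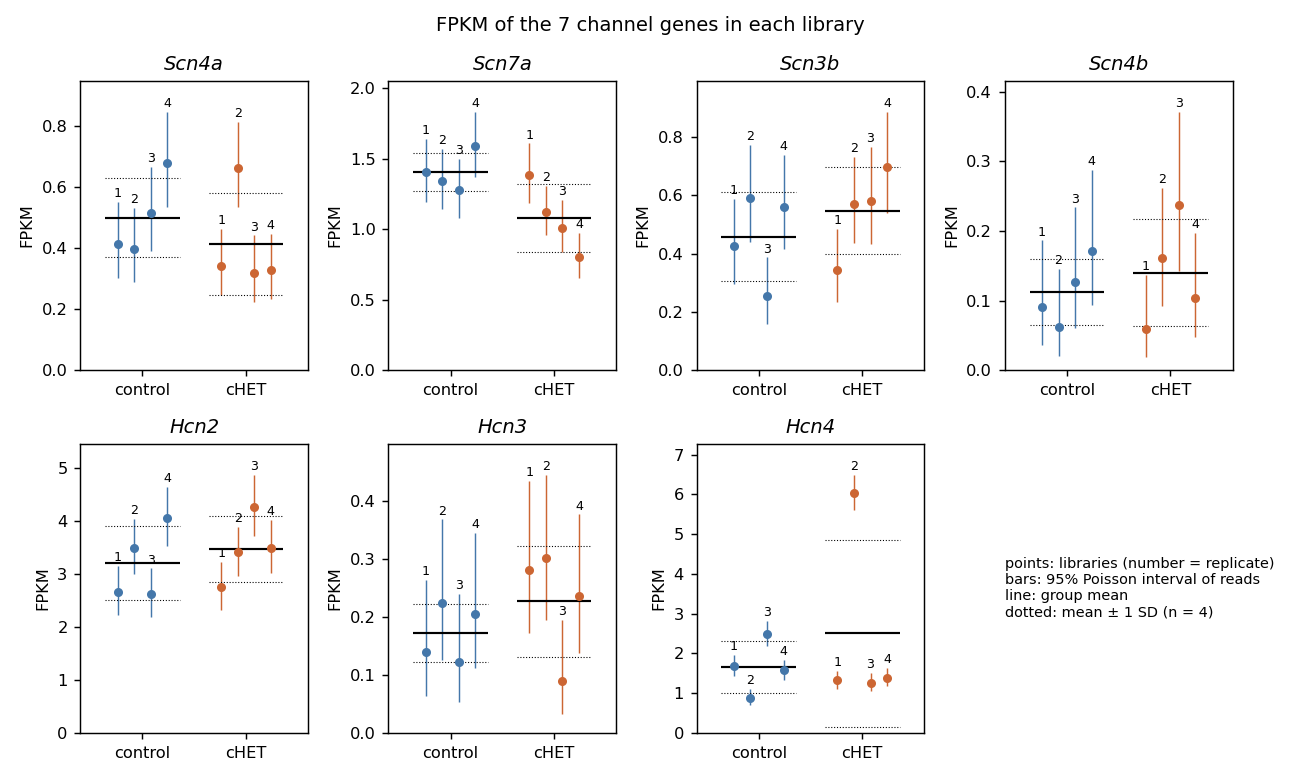
FPKM of the 7 channel genes in each library, with control on the left and cHET on the right of every panel. Points are libraries numbered by replicate, bars their 95% Poisson intervals, solid lines group means and dotted lines 1 SD on either side (n = 4). The groups overlap in every panel, and Hcn4 in cHET 2 (6.04 FPKM) stands alone.

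Reads varied between libraries beyond counting error in different measure. The variance of the reads was 149.6 times what counting alone gives for Hcn4, 6.33 times for Scn7a, 6.06 times for Hcn2 and 5.70 times for Scn4a. It was 3.87 times for Scn3b, 2.41 times for Scn4b and 2.03 times for Hcn3. The values of the least abundant members are thus closest to the limit set by their read numbers.

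Ordered by mean FPKM over the 8 libraries, a level per gene length, the members ran Hcn2 (3.34), Hcn4 (2.08), Scn7a (1.24), Scn3b (0.502), Scn4a (0.456), Hcn3 (0.200) and Scn4b (0.127). Scn7a was above Scn3b, and Scn4a above Hcn3, in 8 of 8 libraries with no overlap of their ranges. The other neighbours did not separate. Hcn2 exceeded Hcn4 in 7 of 8 libraries, all but cHET 2, and Hcn4 exceeded Scn7a in 5 of 8. Scn3b exceeded Scn4a in 5 of 8 and Hcn3 exceeded Scn4b in 6 of 8.

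Of the summed FPKM of Hcn2, Hcn3 and Hcn4, Hcn2 made up 63.7 ± 11.3% in control and 60.6 ± 17.9% in cHET, and Hcn4 made up 32.8 ± 12.3% and 35.5 ± 18.0% (SD, n = 4). Hcn4 formed 37.4, 19.4, 47.6 and 27.0% of this sum in control 1 to 4 and 30.4, 62.0, 22.5 and 27.0% in cHET 1 to 4. The sum itself was 4.35 to 5.83 FPKM in 7 libraries and 9.75 FPKM in cHET 2. Within the 4 sodium channel members Scn7a made up 57.1 ± 3.17% of the summed FPKM in control and 49.6 ± 10.6% in cHET, and Scn3b 18.3 ± 5.28% and 25.5 ± 8.40%. These shares leave out the family's other rows.

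**Figure D2:**
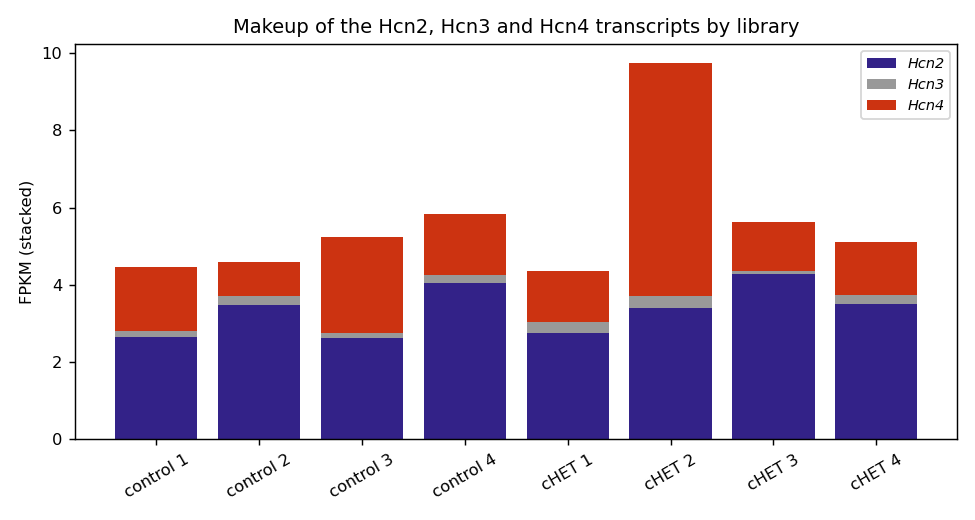
Stacked FPKM of Hcn2, Hcn3 and Hcn4 in each of the 8 libraries. Hcn2 is the largest part of each bar except in cHET 2, where Hcn4 makes up 62.0% of 9.75 FPKM.

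The comparison asks whether the transcripts differ when cardiomyocytes carry a single intact Mrps5 allele. No member passed it. With limma on log2(FPKM + 1), over the 13029 genes with a mean FPKM of at least 1, 3 of 7 members were testable and 0 of them had an adjusted p under 0.05 or an unadjusted p under 0.05, in a background where 0.023% and 8.95% of all tested genes did. The groups overlapped for all 7 members, while 4.74% of tested genes had groups that did not overlap.

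Scn7a had a log2 fold change of -0.21 on this scale (SE 0.113, 95% interval -0.47 to 0.040; limma, adjusted p = 0.610). Hcn2 had 0.095 (SE 0.141, -0.22 to 0.41; limma, adjusted p = 0.824). Hcn4 had 0.24 (SE 0.365, -0.59 to 1.06; limma, adjusted p = 0.831), and without cHET 2 it was -0.16 (SE 0.191; limma, adjusted p = 0.781), so that the sign of the Hcn4 difference rests on that library. Without control 2 the Hcn4 value was 0.087 and without control 1 and control 2 it was 0.032. Scn7a remained below 0 without cHET 2 (-0.23), without cHET 3 (-0.20), without cHET 4 (-0.15) and without control 1 and control 2 (-0.23), and Hcn2 was 0.014 without cHET 3. The log2(FPKM + 1) scale understates changes at levels as low as these.

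Tested as rebuilt reads with limma voom, over the 20107 genes with a mean FPKM of at least 0.1, all 7 members entered and 0 passed, against 0.0298% of genes in that test, and 0 had an unadjusted p under 0.05 (8.55% of genes). The log2 fold changes were -0.37 for Scn7a (95% interval -0.77 to 0.024), -0.26 for Scn4a (-0.90 to 0.38), 0.30 for Scn3b (-0.36 to 0.97) and 0.25 for Scn4b (-0.82 to 1.33). For the HCN genes they were 0.15 for Hcn2 (-0.25 to 0.55), 0.33 for Hcn3 (-0.63 to 1.29) and 0.39 for Hcn4 (-1.04 to 1.82). The voom adjusted p-values were 0.606 to 0.894. The intervals of Scn4a, Scn7a, Scn3b and Hcn2 lay within 1 log2 unit of 0 on both sides, and those of Scn4b, Hcn3 and Hcn4 did not. With limma on log2(FPKM + 1) over the same genes, 0 of 7 members passed (0.00995% of genes did) and 0 had an unadjusted p under 0.05 (8.03% of genes). Of the 11 other family rows, 3 were testable at a mean FPKM of at least 1, and 0 passed (limma, lowest adjusted p = 0.659).

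**Figure D3:**
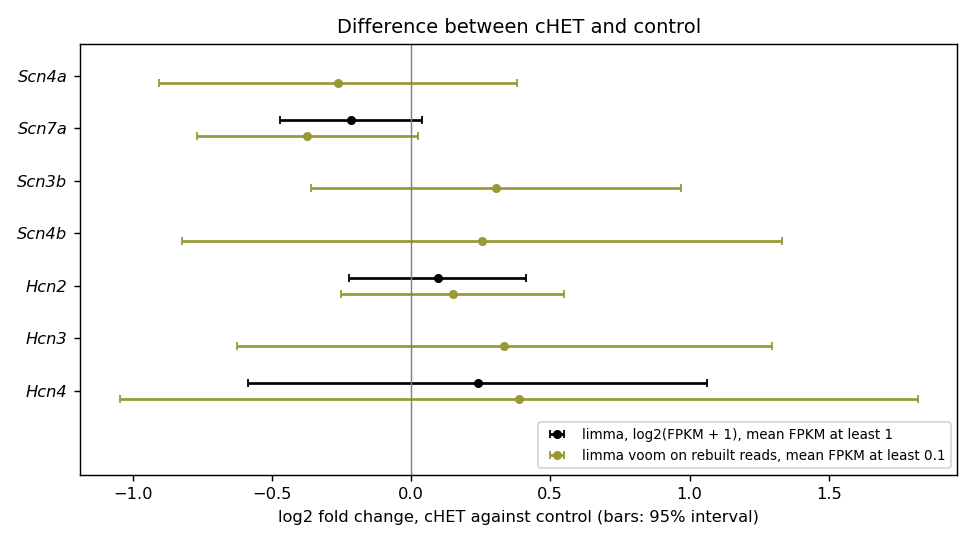
Log2 fold change of each member, cHET against control, with its 95% interval. Black points are limma on log2(FPKM + 1) for the 3 members with a mean FPKM of at least 1, and olive points are limma voom on rebuilt reads for all 7. Every interval includes 0, and those of Hcn4 and Scn4b are the widest.

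The high Hcn4 of cHET 2 came with high values of genes known from the sinoatrial node. Of 14 node markers, 10 were highest in cHET 2, against 5.33% of all tested genes. For 7 of the 14 (Shox2, Vsnl1, Cacna1d, Cacna2d2, Rgs6, Cpne5 and Ntm) the 2 highest libraries were cHET 2 and control 3, the same pair as for Hcn4, against 2.26% of tested genes. Shox2, a transcription factor of the developing node, stood at 0.486, 0.243, 0.842 and 0.277 FPKM in control 1 to 4 and at 0.495, 3.12, 0.188 and 0.40 in cHET 1 to 4. Vsnl1, which encodes a neuronal calcium sensor found in node cells, stood at 0.79, 1.58, 2.49 and 0.406 FPKM in control 1 to 4 and at 1.196, 6.57, 0 and 0.707 in cHET 1 to 4. The calcium channel subunit gene Cacna2d2 stood at 1.28, 2.46, 5.45 and 1.93 FPKM and at 3.00, 8.62, 0.972 and 2.85 in the same order. All 3 genes were highest in cHET 2, and these examples were chosen after their values were seen. Isl1, another node transcription factor, was highest in control 1 (0.52 FPKM) and listed at 0 in cHET 3. In whole hearts, more cells of a type and more RNA per cell cannot be told apart.

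**Figure D4:**
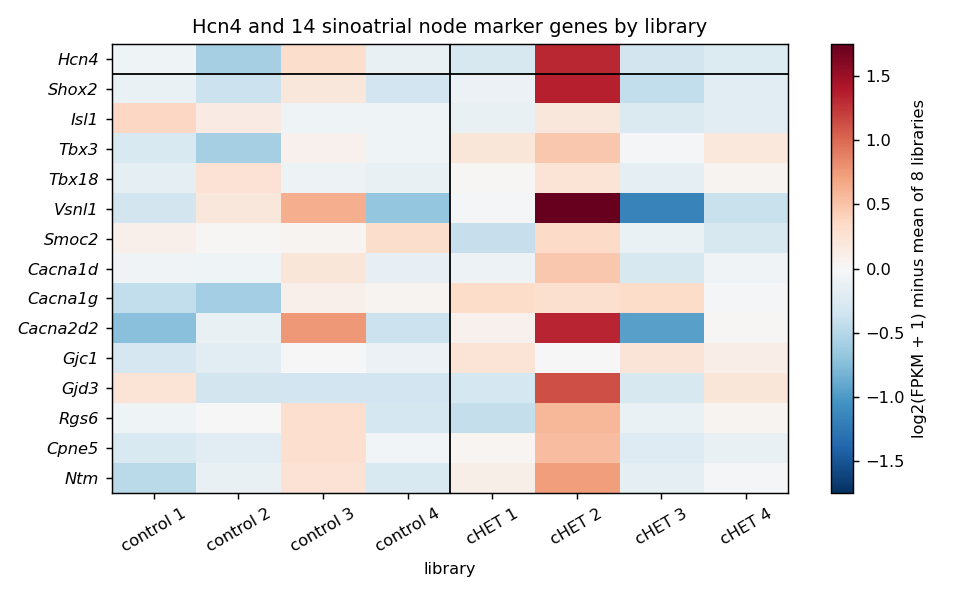
Hcn4 (top row) and 14 sinoatrial node markers in the 8 libraries, as log2(FPKM + 1) minus the mean of the 8 libraries, with control left and cHET right of the line. Red is above and blue below the mean. The column of cHET 2 is red for Hcn4, Shox2, Vsnl1, Cacna2d2 and Gjd3, and 10 of 14 markers are highest there.

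Of 10 atrial markers, 9 were lowest in cHET 3 (12.2% of tested genes were), among them Myl7 at 69.0 FPKM against 643 to 3775 elsewhere, yet Hcn4 in that library (1.26 FPKM) was close to that in cHET 1 and cHET 4 (1.32 and 1.38). Control 4, with the second lowest atrial sum (1532 FPKM), had 1.58 FPKM of Hcn4. The atrial sum was highest in cHET 2 (5432 FPKM) and control 3 (5272 FPKM), the libraries with the most Hcn4, and 6 of 10 atrial markers had these as their 2 highest libraries. The part of atrial or node tissue in the Hcn4 values was not tested.

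Over all tested genes 52.1% were above 0, and for 2.74% every cHET library lay above every control. In the group comparison, node markers had a median log2 fold change of 0.24 among 11 tested, against 0.0086 over all genes, and 0 passed (10 above 0). Gjc1, a connexin of node and early conduction tissue, averaged 15.3 ± 1.36 FPKM among controls and 19.0 ± 1.51 among cHET libraries (SD, n = 4; log2 fold change 0.30, limma, adjusted p = 0.424), with no overlap of the groups. The T-type calcium channel gene Cacna1g averaged 12.3 ± 3.07 and 16.8 ± 2.02 FPKM (0.44, limma, adjusted p = 0.493). Of 5 tested markers of the ventricular conduction fibres 4 were below 0, with a median of -0.054 and 0 passed. Kcne1, a potassium channel subunit gene, had -0.25 and Irx3 -0.0028. The sixth marker, Cntn2, was too low to be tested and lay the other way, at 0.0208 to 0.295 FPKM in control and 0.308 to 1.22 in cHET, without overlap. Atrial markers had a median of -0.50 over 10 genes (9 below 0, 0 passed), with Myl7 at -0.69, Nppa at -0.86 and Bmp10 at -1.19. For Myl7 the mean FPKM was 1971 in control and 2074 in cHET, so that its sign turns between the FPKM and the log2 scale, on which cHET 3 weighs more. Ventricular markers had a median of -0.17 over 6 (4 below 0, 0 passed), with Myl2 at -0.28, Myl3 at -0.16 and Irx4 at -0.21.

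Proteins that bind or anchor sodium channels were tested as 17 genes, of which 0 passed and 13 were above 0, with a median log2 fold change of 0.11. The members with the smallest p were Slmap, a sarcolemmal membrane protein (0.36), Camk2d, the calcium/calmodulin kinase of heart (0.20), and Cxadr, a cell adhesion receptor at the intercalated disc (0.14). Cxadr averaged 7.52 ± 0.172 FPKM among controls and 8.42 ± 0.466 among cHET libraries (SD, n = 4), without overlap. Their limma adjusted p-values were 0.479 to 0.584. Sodium pumps and exchangers had a median of 0.11 over 9 genes (6 above 0, 0 passed), with Atp1b1, the beta subunit of the sodium pump, at 0.52 and the cotransporter Slc12a2 at 0.22.

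Genes for HCN partners and for the cAMP signal that opens HCN channels had a median of 0.10 over 15 tested genes (12 above 0, 0 passed). Gnas, the stimulatory G protein subunit that turns on cAMP synthesis, averaged 6.52 ± 0.943 FPKM among controls and 9.17 ± 1.57 among cHET libraries (SD, n = 4; log2 fold change 0.43, limma, adjusted p = 0.430), and the groups overlapped. Bves, a cAMP-binding membrane protein, had 0.26 and the protein kinase A gene Prkaca 0.27. Transcription factors of pacemaker and conduction cells had a median of 0.0040 over 14 (8 above 0, 0 passed). Tbx3, which keeps node cells from becoming working muscle, averaged 1.49 ± 0.470 and 2.33 ± 0.477 FPKM (0.43, limma, adjusted p = 0.490), Nkx2-5 had 0.19 and Gata4 0.16.

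Scn7a is also known from Schwann cells, fibroblasts and vessels. Fibroblast markers had a median of -0.18 over 8 genes (7 below 0, 0 passed), and summed to 555 to 771 FPKM in control and 503 to 779 in cHET. Lum had -0.33, Col3a1 -0.16 and Col1a1 -0.040. Scn7a was lowest in cHET 4 (0.80 FPKM), where the fibroblast sum was 625 FPKM, and that sum was lowest in cHET 3. Of 14 Schwann cell and neuron markers 8 stayed under 1 FPKM in every library, among them Sox10 (0.904 FPKM or less). The sum of these markers was 24.7 to 29.7 FPKM in control and 31.4 to 43.0 in cHET, most of it from Uchl1, a gene that neurons share with other cells (19.1 ± 2.35 and 30.6 ± 4.64 FPKM, SD, n = 4; log2 fold change 0.65, limma, adjusted p = 0.275). Erbb3 had 0.22, and the median over the 4 tested markers was 0.0052 (2 above 0, 0 passed). Brown fat markers had a median of -0.83 over 3 tested genes (1 above 0, 0 passed), with Ucp1 at -0.99, Adipoq at -0.83 and Cidea at 0.014, and summed to 25.2 to 65.1 FPKM in control and 29.99 to 44.6 in cHET. The 2 tested skeletal muscle markers, Tnnt3 and Mylpf, had 0.40 and -0.085 (median 0.16, 0 passed). The part of these cell types in the Scn7a values was not tested.

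The protein-coding genes most like each testable member were found by Pearson's r of log2(FPKM + 1) over the 8 libraries. A median gene among the 11322 candidates had a best match of r = 0.976 by this measure, so values of this size are common and are given as a description. For Scn7a they were Sigirr (r = 0.984, Spearman's rho = 0.976) and Tie1 (0.959, 0.762). For Hcn2 they were Pafah1b1 (0.964, 0.810) and Kdm6a (0.954, 0.905). For Hcn4 they were Tubb3 (0.962, 0.690) and Samd14 (0.936, 0.690). Without the 2 libraries farthest from the median, r for the Hcn4 pair was 0.309 and 0.179, so their likeness rests on cHET 2 and control 3. It was 0.940 and 0.832 for the Scn7a pair and 0.986 and 0.912 for the Hcn2 pair.

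The sexes were set side by side after seeing the data, with 3 male libraries (control 1, control 3 and cHET 1) and 5 female ones told by Ddx3y and Xist. Hcn2 stood at 2.62 to 2.75 FPKM in the male and at 3.41 to 4.27 FPKM in the female libraries, without overlap, as was the case for 4.19% of tested genes. Its log2 difference, male minus female with the genotype in the model, was -0.36 (SE 0.0968; limma, adjusted p = 0.999), which failed the correction, while 0.0307% of genes passed it. With sex as a covariate the log2 fold change of Hcn2 between the genotypes was 0.0047. That of Mrps5 was -0.016 (limma, adjusted p = 0.985), and the controls with high Mrps5, control 1 and control 3, were the male ones. The male cHET library, cHET 1, went the other way, with the lowest Mrps5 of its group (6.84 FPKM against 6.995 to 7.68). Scn7a and Hcn4 overlapped between the sexes, with log2 differences of 0.076 and 0.038.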

How the data were processed

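The authors deposited FPKM, a level relative to gene length and a scale for each library, for each gene in each of the 8 libraries, per the file headers. Named in the submitters' processing notes, without their roles, are the build mm9 and the tools featureCounts 1.5.0-p3, HISAT2 2.0.5 and DESeq2 1.20.0. Coordinates matched GENCODE M21 for 98.3% of shared gene identifiers, so they are given on GRCm38. Reads were rebuilt from FPKM times gene length, where 100% of values came out whole (within 0.05 reads). The scale was not the total of these reads (in control 1, 15532644 against 16050706), and how it was set is not given in the sources used here. Strand use in counting is not given in the sources used here.

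Genes with a mean FPKM of at least 1 (13029) entered limma (version 3.58.1, under R 4.3.3) as log2(FPKM + 1), with a mean-variance trend and robust moderation, no covariates, two-sided tests and Benjamini-Hochberg adjustment over all of them at 0.05. The fit was also run on simulated reads that had the same spread setting for all genes. That run does not show how the fit behaves on genes as variable as Hcn4. Alternatives were other pseudocounts (0.1 and 0.5), filters, scalings and variance models, voom, library weights, omitted libraries, a replicate block, protein-coding genes only and a term for sex. The voom test at a mean FPKM of at least 0.1 and the comparison of the sexes were chosen after seeing the data. Poisson intervals are exact and at 95%.

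Members and gene lists were chosen with earlier results of these data known, and lists are described by counts and medians with no set test. Named are the 7 members, Mrps5, the 3 genes of each pathway list with the smallest p, the 2 most abundant and the 1 with the smallest p of each cell type list, and the 2 genes most like each testable member. The rule also named the 11 other family rows, which are reported here only as counts, and 1 pathway gene that is not reported here. Shox2, Vsnl1, Cacna1d, Cacna2d2, Rgs6, Cpne5, Ntm, Isl1, Gjd3, Cntn2, Myod1, Myf5, Sox10, Xist and Ddx3y were named after their values were seen.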

Additional observations from a re-analysis of the deposited data

Results flagged for a closer look

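Within each group of 4, a library was singled out where its gap to the nearest other, as a share of the group's range, exceeded Dixon's 95% critical value. Of 108 comparisons of 54 genes or marker sums with a group, 10 did so. Chance alone singles out a library in about 1 in 20 groups. In cHET 2, Hcn4 stood at 6.04 FPKM against 1.26 to 1.38 in the other cHET libraries, Scn4a at 0.663 against 0.318 to 0.341, and the sum of node markers at 86.3 against 56.5 to 61.0. Tubb3, a neuronal tubulin gene whose pattern was most like that of Hcn4, stood at 3.44 FPKM against 0.832 to 1.10, Adipoq at 2.14 against 0 to 0.250, and Slmap at 24.04 against 29.3 to 30.04. Tubb3 was picked for its likeness to Hcn4, so its high value in cHET 2 follows from that choice and lends the count of 10 no support. In cHET 4, Cxadr was high (9.10 FPKM against 8.08 to 8.24) and Cacna1g low (13.8 against 17.5 to 18.0). Among controls, Nkx2-5 was high in control 3 (124 FPKM against 87.2 to 90.9) and Col3a1 low in control 1 (148 against 211 to 223).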

How the results depend on the processing

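In the 25 other settings run, 0 members passed, with up to 7 testable. Scn7a was below 0 in 25 of 25 settings (-0.37 to -0.15; limma, adjusted p 0.467 to 0.935, with an unadjusted p under 0.05 in 1 of them, without cHET 1) and Hcn2 above 0 in 25 of 25 (0.0047 to 0.20, the lowest with sex as a covariate). Hcn4 was above 0 in 24 and reversed to -0.16 without cHET 2, in a range up to 0.38 with 1 library left out. Mrps5 was -0.13 (limma, adjusted p = 0.849), -0.016 with sex as a covariate, and -0.30 to 0.041 with 1 library left out, above 0 only without control 1. Scn4a, Scn3b, Scn4b and Hcn3 kept their signs in the 3 settings that tested them, of which only voom estimated the change anew. On log2(FPKM + 1), filters, the variance model, the replicate block and protein-coding genes only left a gene's log2 fold change as it was. The signs in those settings were fixed in advance and lend the counts of settings no support. Over all genes, 3 passed with the test described above, 11 with library weights (8 of them higher in cHET), 6 with voom at a mean FPKM of at least 0.1, 1 with the replicate block, and 2 to 3 with a library left out. Same-numbered libraries had correlations of 0.0521 to 0.286 between their deviations. Control 1, control 2 and control 3 were each most like the cHET library of the same number. Control 4 was most like cHET 3 (0.344), and cHET 4 was most like control 2 (0.1015). Whether the numbers pair libraries is thus not settled. The main test did not pair them, and with the replicate block 0 members passed. TPM moved the median log2 fold change of all genes to 0.10, and Hcn2 stood at 0.20 there and Scn7a at -0.23. Read numbers limit Scn4b and Hcn3, at 25 reads or fewer per library.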
